A study of Mus musculus with 8 samples.

Results

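The genes described here are 33 genes of glycolysis and of the cellular response to low oxygen, measured by bulk RNA-seq in Kupffer cells, the macrophages that reside in liver sinusoids, from naive and from fibrotic mouse livers. They were taken by symbol from a named list that covers glucose and lactate transport, the enzymes of glycolysis, and the factors and common targets of the hypoxia response. No threshold on a measured value was used, although the list was drawn up with earlier results of these data known. All 33 were found among the 32903 genes with a matched transcript, and all 33 passed the filter on low values, which left 15629 genes for testing. The 8 libraries came from wild-type mice. For the 5 naive libraries the mice were untreated. For the 3 CCl4 libraries the mice had received carbon tetrachloride, a hepatotoxin that scars the liver when given repeatedly, at 0.75 mL/kg in corn oil on 3 occasions a week over 8 weeks. CCl4 libraries carry the numbers 1, 2-4 and 3, with no statement on whether 2-4 is a pool of mice. Age, sex and the way the cells were isolated are not stated in the labels, and no label mentions a group given corn oil alone. Whether different libraries represent different animals is not stated, so each p-value refers to the spread among libraries, which may be technical. Values are in TPM, a transcript abundance corrected for length and for the library's total, summed here over the RefSeq transcripts of each gene.

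Glycolysis splits glucose into pyruvate in the cytosol. Glucose enters through facilitative transporters, is trapped by hexokinases, passes a regulated step at phosphofructokinase, and leaves either as pyruvate for the mitochondria or as lactate through monocarboxylate transporters. When oxygen is low, prolyl hydroxylases stop marking the alpha subunits of the hypoxia-inducible factors (HIF) for capture by the Vhl ubiquitin ligase, and the stabilised factors bind the core sequences ACGTG and GCGTG in promoters and enhancers of glycolytic and other genes. Macrophages are known to raise glycolysis on inflammatory activation.

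The glycolysis and hypoxia genes did not move as a block. In limma on log2(TPM + 1), with Benjamini-Hochberg adjustment over all genes tested, 10 of the 33 members (30.3%) were higher and 5 (15.2%) were lower in CCl4 libraries at an adjusted p under 0.05. Over all genes tested, 15.3% were called higher and 22.5% lower, and 37.8% in either direction. The median log2 fold change of the members was 0.12, against -0.06 over all genes tested. Of the 33 members, 9 had every CCl4 library above every naive one and 4 had every CCl4 library below, all of them called members. Over all genes tested, called or not, such a separation was seen in 16.3% upward, 20.6% downward and 36.9% in all. The members of the glycolytic pathway, counting glucose and lactate transport and Pdk1, were 8 higher, 2 lower and 13 not called of 23, with a median of 0.24. The HIF factors, their regulators and their other targets were 2 higher, 3 lower and 5 not called of 10, with a median of -0.52. Of the 18 members not called, 5 had an unadjusted p under 0.05.

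**Figure D1:**
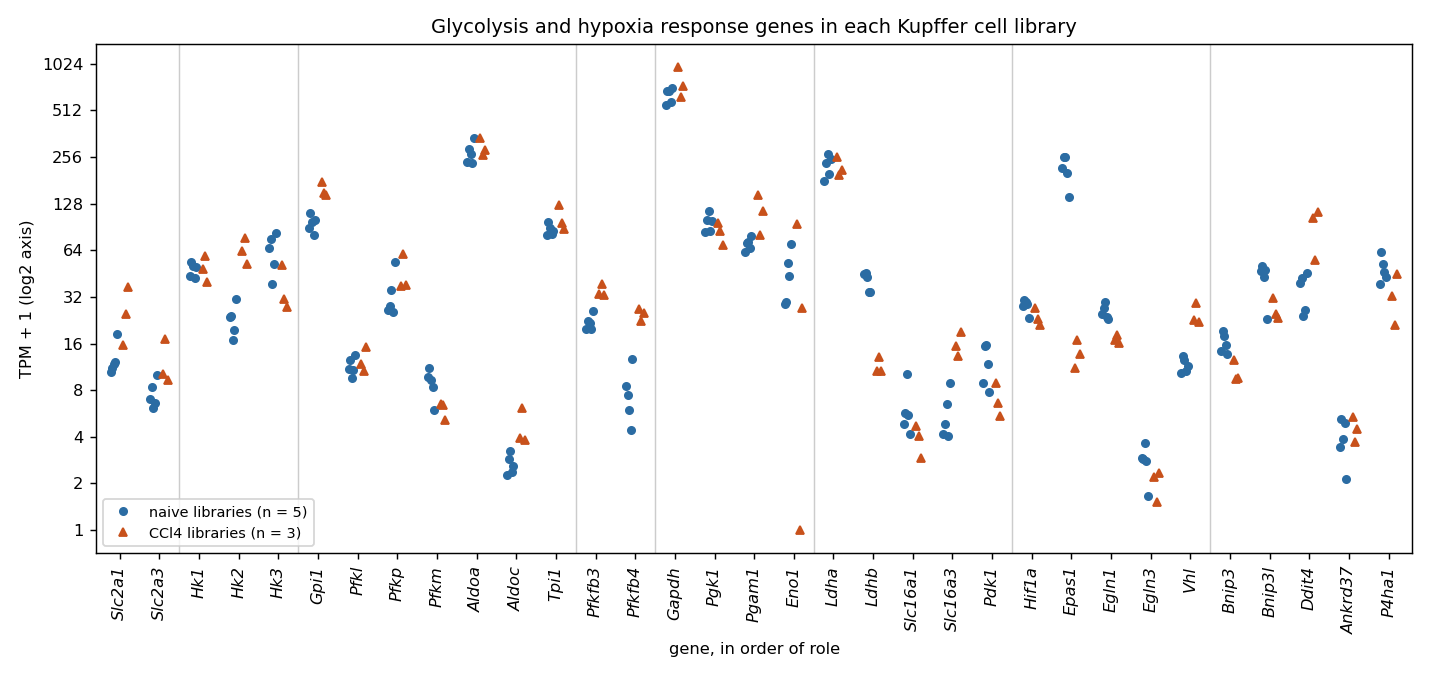
TPM + 1 of each of the 33 members on a log2 axis, with 1 point for each library: circles for the 5 naive and triangles for the 3 CCl4 libraries, in order of role. Epas1 and Ldhb are well separated downward and Hk2, Pfkfb4, Slc16a3, Vhl and Ddit4 upward, and the triangle at 1 is Eno1, listed at 0 TPM in the CCl4 library numbered 2-4.

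Gapdh, Aldoa and Ldha held 52.4% of the members' summed TPM, and the sum itself was 2238 ± 213 TPM (SD, n = 5) without and 2366 ± 379 TPM (SD, n = 3) with CCl4, so the groups differed by less than their SDs. On this length-scaled measure 10 members averaged at least 50 TPM over the 8 libraries and 4 averaged under 5 TPM.

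**Figure D2:**
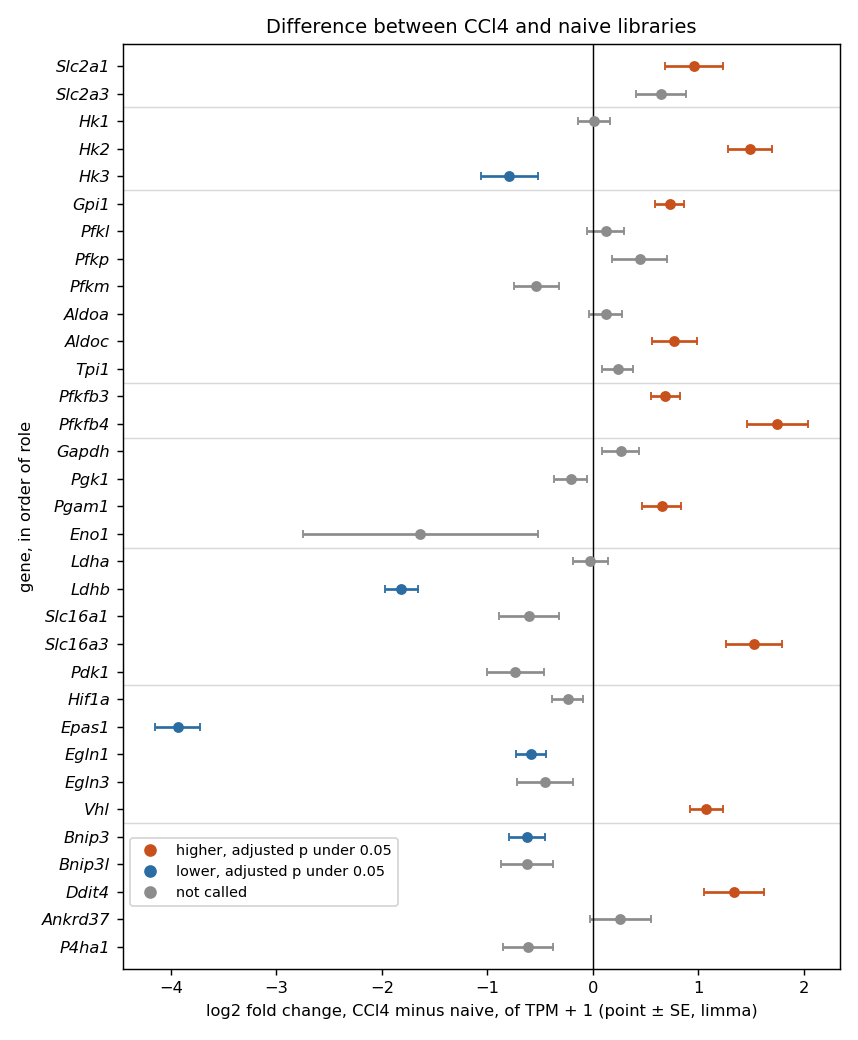
log2 fold change of each member, CCl4 minus naive, on the log2(TPM + 1) scale, with its standard error from limma and in order of role. Called members range from -3.93 for Epas1 to 1.75 for Pfkfb4, and the wide bar is Eno1.

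Promoters are shown for 6 of the 7 called members with a log2 fold change of at least 1 in size, to let the letters of genes that differed most be read side by side, and for Ldha, which was not called and had the largest number of matches. The RefSeq promoter table of GRCm38, which gives 250 bases before and 50 after each start, held entries for 30 of the 33 members and none for Slc2a3, Bnip3l and Epas1. Capitals mark matches to ACGTG or GCGTG, the HIF core, on either strand, so that a match on the opposite strand reads CACGT or CACGC and the palindrome CACGTG counts as 2 matches. The windows are chr6:82774405-82774704 on the minus strand for Hk2, chr9:108991652-108991951 on the plus strand for Pfkfb4, chr11:120948817-120949116 on the plus strand for Slc16a3, chr10:59951721-59952020 on the minus strand for Ddit4, chr6:113623744-113624043 on the plus strand for Vhl, chr6:142507908-142508207 on the minus strand for Ldhb and chr7:46845554-46845853 on the plus strand for Ldha. All are written 5′ to 3′ on the gene's strand.
Hk2: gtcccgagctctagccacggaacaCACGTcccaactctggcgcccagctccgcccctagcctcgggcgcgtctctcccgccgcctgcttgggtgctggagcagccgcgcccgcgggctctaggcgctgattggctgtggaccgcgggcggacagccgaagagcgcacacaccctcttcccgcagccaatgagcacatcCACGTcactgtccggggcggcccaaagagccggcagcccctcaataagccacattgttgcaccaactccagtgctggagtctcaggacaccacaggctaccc
Pfkfb4: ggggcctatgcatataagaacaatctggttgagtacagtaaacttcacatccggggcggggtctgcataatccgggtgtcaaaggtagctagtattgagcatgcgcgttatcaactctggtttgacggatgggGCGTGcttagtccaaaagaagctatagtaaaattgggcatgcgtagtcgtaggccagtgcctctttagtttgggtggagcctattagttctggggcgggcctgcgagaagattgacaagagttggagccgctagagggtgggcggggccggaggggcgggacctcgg
Slc16a3: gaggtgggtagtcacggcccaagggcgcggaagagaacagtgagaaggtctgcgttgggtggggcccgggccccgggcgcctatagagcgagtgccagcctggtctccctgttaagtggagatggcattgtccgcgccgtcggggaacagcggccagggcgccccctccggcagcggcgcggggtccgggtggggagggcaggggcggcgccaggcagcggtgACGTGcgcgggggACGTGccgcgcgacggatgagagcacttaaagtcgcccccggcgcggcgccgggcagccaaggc
Ddit4: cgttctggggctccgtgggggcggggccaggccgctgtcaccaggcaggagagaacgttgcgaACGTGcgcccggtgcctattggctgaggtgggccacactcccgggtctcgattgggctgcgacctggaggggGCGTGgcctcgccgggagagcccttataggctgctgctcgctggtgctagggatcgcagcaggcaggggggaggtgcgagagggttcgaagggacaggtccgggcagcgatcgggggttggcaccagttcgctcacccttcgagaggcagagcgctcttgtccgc
Vhl: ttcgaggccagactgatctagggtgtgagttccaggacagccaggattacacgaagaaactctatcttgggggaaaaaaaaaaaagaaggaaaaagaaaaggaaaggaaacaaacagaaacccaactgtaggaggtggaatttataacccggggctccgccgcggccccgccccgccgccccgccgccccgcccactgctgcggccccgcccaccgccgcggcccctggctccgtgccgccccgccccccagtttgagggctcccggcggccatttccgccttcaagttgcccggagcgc
Ldhb: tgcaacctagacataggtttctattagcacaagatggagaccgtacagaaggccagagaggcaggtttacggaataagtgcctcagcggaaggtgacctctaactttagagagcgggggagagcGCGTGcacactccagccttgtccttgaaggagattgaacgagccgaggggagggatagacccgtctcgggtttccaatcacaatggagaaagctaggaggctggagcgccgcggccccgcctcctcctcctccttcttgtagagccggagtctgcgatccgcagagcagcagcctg
Ldha: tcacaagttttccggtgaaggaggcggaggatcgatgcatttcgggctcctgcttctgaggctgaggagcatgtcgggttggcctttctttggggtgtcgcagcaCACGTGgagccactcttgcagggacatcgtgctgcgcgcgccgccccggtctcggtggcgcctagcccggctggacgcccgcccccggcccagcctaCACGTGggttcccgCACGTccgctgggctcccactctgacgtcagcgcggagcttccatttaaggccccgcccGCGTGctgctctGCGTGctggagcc
The counts of matches were 2 for Hk2, Slc16a3 and Ddit4, 1 for Pfkfb4 and Ldhb, 0 for Vhl and 7 for this start of Ldha. At least 1 match was present in 35 of the 42 member promoters (83.3%), against 56.3% of the 15552 promoters of tested genes and 43.8% of all 32851 promoters of the same length. By gene, 27 of the 30 members with an entry had a match, and 61.6% of the 12245 tested genes with an entry did. The 3 members without one were Gpi1, Tpi1 and Vhl. A match was present for 8 of 10 higher, 4 of 4 lower and 15 of 16 uncalled members. A match describes these letters and is not a measured binding site, and many members were listed because they are textbook HIF targets.

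The glucose transporter Slc2a1 was higher in CCl4 libraries and its sister Slc2a3 did not pass the test. Slc2a1, the broadly expressed transporter also called Glut1, had 9.43, 10.2, 10.8, 11.2 and 17.4 TPM in naive libraries 1 to 5 and 14.7, 23.8 and 36.2 TPM in CCl4 libraries 1, 2-4 and 3. Naive library 5 was above CCl4 library 1, so the groups overlapped, and the log2 fold change was 0.96 (SE 0.27, adjusted p = 0.0177 by limma). The call was lost without CCl4 library 2-4 (adjusted p = 0.0513) and without CCl4 library 3 (adjusted p = 0.0908), and the fold change was 0.65 without the latter. Slc2a3, a transporter of higher affinity, had 5.13 to 9.07 TPM in naive and 8.37 to 16.1 TPM in CCl4 libraries. Its log2 fold change was 0.64 with SE 0.24 (adjusted p = 0.0553 by limma). It was called under 6 of 20 alternatives, among them without naive library 5 (adjusted p = 0.0213) and without CCl4 library 3 (adjusted p = 0.0469). Without CCl4 library 2-4 its log2 fold change was only 0.37 (adjusted p = 0.231). The share of Slc2a1 in the sum of both transporters overlapped between the groups (57.8% to 67.9% in naive and 59.6% to 81.2% in CCl4 libraries).

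Among hexokinases, which phosphorylate glucose on entry, Hk2 rose and Hk3 fell while Hk1 did not pass the test. Hk2, the inducible form that docks on mitochondria, had 22.8, 23.0, 15.97, 18.7 and 30.1 TPM in naive libraries 1 to 5 and 62.8, 76.2 and 51.1 TPM in the CCl4 libraries. Every CCl4 library lay above every naive one, and the log2 fold change was 1.49 (SE 0.21, adjusted p = 0.000231 by limma). Hk3, a form found mainly in blood and myeloid cells, had 65.7, 75.0, 38.0, 51.4 and 82.1 TPM in naive and 50.3, 30.2 and 26.7 TPM in CCl4 libraries, with CCl4 library 1 inside the naive range. Its log2 fold change was -0.79 (SE 0.27, adjusted p = 0.0409), a call lost under 10 of 20 alternatives, including 6 of the 8 in which a library was left out. Those were naive libraries 1, 2, 4 and 5 (adjusted p = 0.0755, 0.0856, 0.0502 and 0.0623) and CCl4 libraries 2-4 and 3 (adjusted p = 0.127 and 0.171). Hk1, the constitutive form, had 41.3 to 52.9 TPM in naive and 38.9 to 57.6 TPM in CCl4 libraries (log2 fold change 0.01, SE 0.15, adjusted p = 0.968), with a sign that varied with the processing.

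The makeup of the hexokinase pool therefore differed more than its total, which was 132 ± 24.6 TPM (SD, n = 5) without and 147 ± 26.3 TPM (SD, n = 3) with CCl4. Hk2 made up 16.7 ± 1.44% of the pool in naive (SD, n = 5) and 43.1 ± 3.70% in CCl4 libraries (SD, n = 3), with no overlap (15.2% to 18.7% and 39.1% to 46.5%). Hk3 made up 46.7 ± 5.96% and 24.2 ± 6.59%, also with no overlap, and the share of Hk1 overlapped. The hexokinase of largest share was Hk3 in 4 of the naive libraries and Hk1 in naive library 3, and it was Hk2 in all 3 CCl4 libraries.

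**Figure D3:**
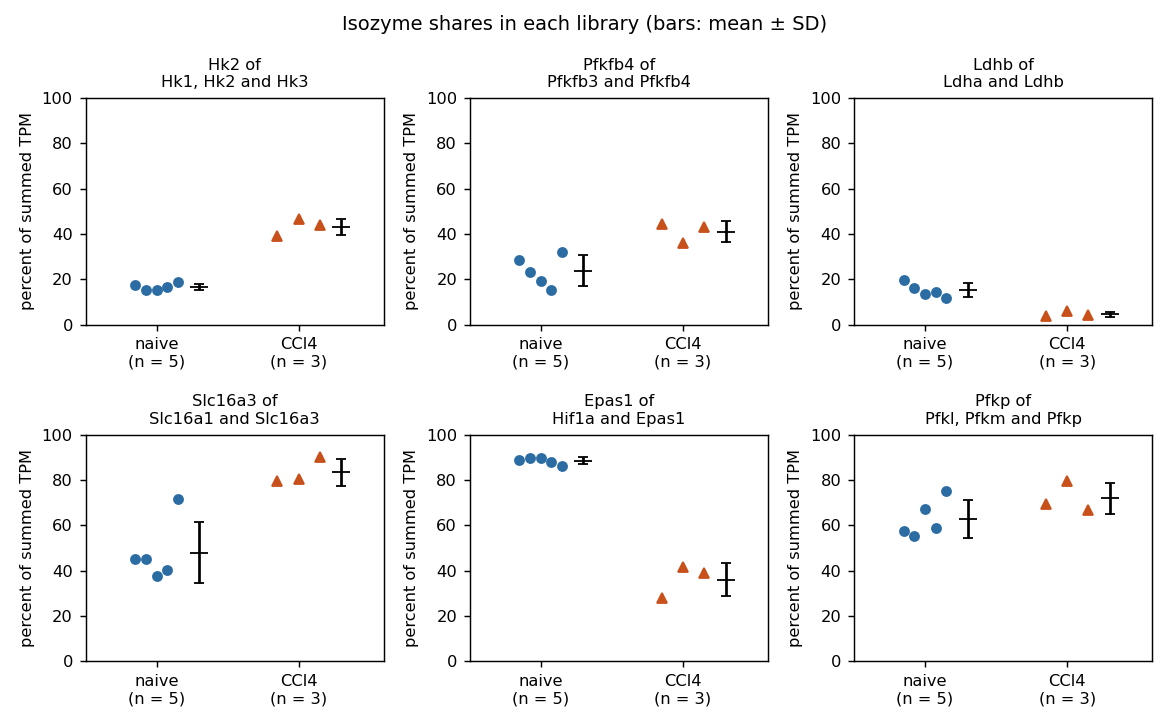
Percent of the summed TPM of an isozyme family held by 1 member in each library, with the mean and SD of each group beside the points. The groups separate for Hk2, Pfkfb4, Ldhb, Slc16a3 and Epas1 and overlap for Pfkp, and naive library 5 stands above the other naive libraries for Slc16a3 at 71.6%.

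In the upper steps, which turn glucose phosphate into triose phosphates, Gpi1 and Aldoc rose and the other members were not called. Gpi1, the isomerase that follows hexokinase, had 88.8, 109.7, 96.0, 79.0 and 98.9 TPM in naive and 176, 149 and 145 TPM in CCl4 libraries. The groups did not overlap, and the log2 fold change was 0.73 (SE 0.14, adjusted p = 0.00207 by limma). Aldoc, a minor aldolase here, had 1.28, 1.87, 2.25, 1.37 and 1.59 TPM in naive and 2.95, 5.13 and 2.82 TPM in CCl4 libraries, again without overlap. Its log2 fold change was 0.77 (SE 0.21, adjusted p = 0.0151), and the adjusted p was 0.0659 without CCl4 library 2-4. Aldoa, the main aldolase, had 234 to 337 TPM and 263 to 338 TPM, so Aldoc held only 0.614% of the aldolase sum in naive and 1.25% in CCl4 libraries on average. Tpi1, which interconverts the triose phosphates, had a log2 fold change of 0.24 (with SE 0.14, adjusted p = 0.233).

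None of the 3 phosphofructokinase genes, which encode the committed step, was called. Pfkl, the liver-type subunit, had 8.65 to 12.4 TPM in naive and 9.69 to 14.2 TPM in CCl4 libraries, with a log2 fold change of 0.12. Pfkp, the platelet-type subunit, had 24.7 to 53.1 TPM and 36.7 to 59.4 TPM (log2 fold change 0.45, adjusted p = 0.209), and was called without naive library 5 (adjusted p = 0.026). Its direction rests on predicted noncoding RefSeq models, which held 59.6% to 86.2% of its TPM, and with coding models only its log2 fold change was -0.08. Pfkm, the muscle-type subunit, had 4.998 to 10.2 TPM and 4.13 to 5.56 TPM (log2 fold change -0.54, adjusted p = 0.0702), and was called lower without naive library 5 (adjusted p = 0.00828). The shares of the 3 subunits overlapped between the groups.

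Both members that set the level of fructose 2,6-bisphosphate, the strongest activator of phosphofructokinase, rose. Pfkfb3, the form with the highest kinase activity, had 18.9, 21.4, 20.8, 19.0 and 24.8 TPM in naive and 32.5, 38.1 and 32.2 TPM in CCl4 libraries. Its log2 fold change was 0.69 (SE 0.14, adjusted p = 0.00281 by limma), without overlap between the groups. Pfkfb4 had 7.58, 6.42, 4.95, 3.45 and 11.8 TPM in naive and 25.8, 21.3 and 24.3 TPM in CCl4 libraries. Naive library 5 was the highest of its group yet still below every CCl4 library, and the log2 fold change of 1.75 (SE 0.29, adjusted p = 0.000776) was the largest rise among the members. Together the pair went from 27.8 ± 5.30 TPM (SD, n = 5) to 58.0 ± 1.47 TPM (SD, n = 3), and the Pfkfb4 share from 23.7 ± 6.82% to 41.0 ± 4.53%. The promoter of Pfkfb4 printed above holds its single match in GCGTG form.

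Of the lower steps, which yield ATP and pyruvate precursors, only Pgam1 passed the test. Pgam1, the phosphoglycerate mutase, had 61.3, 70.7, 71.5, 65.7 and 78.4 TPM in naive and 145, 79.0 and 115 TPM in CCl4 libraries. CCl4 library 2-4 was only just above the highest naive library, and the log2 fold change was 0.65 (SE 0.19, adjusted p = 0.0173 by limma), which was not called without CCl4 library 1 (adjusted p = 0.0763) or without CCl4 library 3 (adjusted p = 0.0651). Gapdh, the dehydrogenase of the pathway and a usual reference gene, had 550.3 to 715 TPM in naive and 627 to 973 TPM in CCl4 libraries (log2 fold change 0.26, SE 0.17, adjusted p = 0.267). Pgk1, the first ATP-forming kinase, had 82.9 to 114 TPM and 68.3 to 95.0 TPM (log2 fold change -0.21, adjusted p = 0.317). Eno1, the ubiquitous enolase, was listed at 27.7, 28.6, 52.2, 42.7 and 69.4 TPM in naive libraries and at 93.6, 0 and 26.1 TPM in CCl4 libraries 1, 2-4 and 3. The files hold 1 of its 3 RefSeq transcripts and list it at 0 in CCl4 library 2-4. The level of the gene therefore cannot be read from these values. Its adjusted p was 0.279, with a log2 fold change of 0.25 without CCl4 library 2-4 and of -3.03 (adjusted p = 0.0341) without CCl4 library 1. Gapdh, Pgk1, Eno1, Ldha and several other glycolytic genes have near-identical processed copies in the mouse genome, and values are uncertain where reads could be split among copies.

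Of the lactate dehydrogenase subunits, Ldhb fell and Ldha was not called. Ldha, the subunit that favours lactate formation, had 178, 233, 268, 199 and 248 TPM in naive and 254, 195 and 211 TPM in CCl4 libraries, fully overlapping, at a log2 fold change of -0.03 with SE 0.17 (adjusted p = 0.923 by limma). Ldhb, the subunit that favours lactate oxidation, had 44.0, 45.0, 41.9, 33.2 and 33.7 TPM in naive and 9.64, 12.2 and 9.71 TPM in CCl4 libraries. No value of either group came near the other, and the log2 fold change of Ldhb was -1.81 (limma SE 0.16, adjusted p = 9.8e-06). Its share of the lactate dehydrogenase sum went from 15.2 ± 3.03% (SD, n = 5) to 4.64 ± 1.13% (SD, n = 3).

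Among the monocarboxylate transporters, Slc16a3, also called Mct4 and known for lactate export from glycolytic cells, rose. It had 3.16, 3.85, 5.57, 3.06 and 7.94 TPM in naive and 14.4, 12.3 and 18.0 TPM in CCl4 libraries, without overlap, and its log2 fold change was 1.53 (SE 0.27, adjusted p = 0.00115 by limma). Slc16a1, or Mct1, which carries lactate in either direction, had 3.87, 4.66, 9.20, 4.52 and 3.15 TPM in naive and 3.67, 3.03 and 1.93 TPM in CCl4 libraries (log2 fold change -0.60, SE 0.28, adjusted p = 0.123). Naive library 3 stood far above the rest, and naive library 5 alone lay within the CCl4 range. Slc16a3 made up 48.0 ± 13.6% of the pair in naive (SD, n = 5) and 83.4 ± 5.99% in CCl4 libraries (SD, n = 3). Pdk1, the kinase that shuts pyruvate out of the mitochondria, had 6.79 to 14.7 TPM in naive and 4.46 to 7.96 TPM in CCl4 libraries, at a log2 fold change of -0.73 with SE 0.27 (adjusted p = 0.0524). It was called lower without naive library 1, naive library 5 or CCl4 library 1 (adjusted p = 0.0454, 0.0143 and 0.0354) and for its most abundant transcript alone (log2 fold change -0.997, adjusted p = 0.00993).

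The largest difference among all members was in Epas1, which encodes HIF-2 alpha and lies at chr17:86753864-86833410. The files hold 1 of its 2 RefSeq transcripts, so part of its level may be missing. Epas1 had 217, 254, 254, 200.5 and 140 TPM in naive libraries 1 to 5 and 10.2, 15.8 and 12.7 TPM in the CCl4 libraries. Means were 213 ± 47.3 TPM (SD, n = 5) and 12.9 ± 2.81 TPM (SD, n = 3), so the naive mean was 16.5 times the CCl4 mean, and the log2 fold change was -3.93 (SE 0.21, adjusted p = 1.6e-06 by limma). Hif1a, which encodes HIF-1 alpha and whose activity is set largely at the protein level, had 22.5 to 29.7 TPM in naive and 20.01 to 26.2 TPM in CCl4 libraries (log2 fold change -0.24, SE 0.14, adjusted p = 0.224). Epas1 made up 88.5 ± 1.52% of the sum of both alpha subunits in naive (SD, n = 5) and 36.1 ± 7.19% in CCl4 libraries (SD, n = 3). Epas1 was thus above Hif1a in every naive library and below it in every CCl4 library, on the length-scaled measure.

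The components that mark HIF for degradation moved in different directions. Vhl, the substrate receptor of the ligase, had 9.29, 12.3, 11.5, 9.58 and 10.5 TPM in naive and 21.6, 28.2 and 21.1 TPM in CCl4 libraries, with no overlap. It rose by a log2 fold change of 1.08 (with SE 0.16, adjusted p = 0.000341 by limma), and its promoter window printed above held no core match. Egln1, the main prolyl hydroxylase PHD2, had 23.8, 26.1, 28.9, 22.8 and 21.9 TPM in naive and 15.8, 17.3 and 15.1 TPM in CCl4 libraries, also apart, at a log2 fold change of -0.59 with SE 0.14 (adjusted p = 0.00659). Egln3, the hypoxia-inducible hydroxylase PHD3, was low, at 0.67 to 2.66 TPM in naive and 0.52 to 1.33 TPM in CCl4 libraries (log2 fold change -0.45, adjusted p = 0.206), and was called lower without naive library 5 (adjusted p = 0.0294).

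Of the hypoxia targets outside glycolysis, Ddit4 rose, Bnip3 fell and 3 were not called. Ddit4, or Redd1, an inhibitor of mTORC1 signalling that also responds to glucocorticoids and other stress, had 38.2, 41.2, 23.0, 25.2 and 44.5 TPM in naive and 103, 54.2 and 113 TPM in CCl4 libraries. CCl4 library 2-4 was the nearest to the naive range without entering it, and the log2 fold change was 1.34 (SE 0.28, adjusted p = 0.00359 by limma). Bnip3, a mitophagy receptor, had 13.2, 18.3, 16.8, 14.8 and 12.8 TPM in naive and 11.5, 8.49 and 8.54 TPM in CCl4 libraries, just apart. Its log2 fold change was -0.62 (SE 0.17, adjusted p = 0.0147), and the adjusted p was 0.0547 without CCl4 library 2-4 and 0.0612 without CCl4 library 3. Its relative Bnip3l, also called Nix, which clears mitochondria from maturing red cells, had 45.9, 49.6, 42.0, 46.5 and 22.0 TPM in naive and 30.6, 23.7 and 22.5 TPM in CCl4 libraries (log2 fold change -0.62, SE 0.25, adjusted p = 0.0718). Naive library 5 lay below every CCl4 library there, and without it the log2 fold change was -0.83 (adjusted p = 0.00103). P4ha1, a collagen prolyl hydroxylase subunit, had 73.4% to 90.9% of its TPM from predicted noncoding models. It had 38.0 to 61.7 TPM in naive and 20.2 to 44.1 TPM in CCl4 libraries (log2 fold change -0.61, adjusted p = 0.0661). It was called lower under 2 of 20 alternatives, among them without CCl4 library 3 (adjusted p = 0.0187). Over the alternatives its log2 fold change ran from -0.87 to -0.24, with an adjusted p of up to 0.611 by limma. Ankrd37, a small ankyrin-repeat target of HIF-1, had 1.14 to 4.21 TPM and 2.70 to 4.37 TPM (log2 fold change 0.26, adjusted p = 0.516).

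Transcript by transcript, 74 of the members' 107 RefSeq transcripts could be tested, and 11 were higher and 6 lower. The background over 29401 transcripts was 7.99% higher and 12.1% lower. For 14 members the files hold a single transcript. That was 1 of 2 RefSeq transcripts for Epas1, Egln1 and Pfkl and 1 of 3 for Eno1 and Ankrd37. The values of these genes may therefore miss part of their level. With the most abundant transcript in place of the gene sum, Slc2a1, Hk3, Aldoc, Pfkfb4 and Slc16a3 were no longer called (adjusted p = 0.0559, 0.688, 0.0693, 0.0537 and 0.0921 by limma). The log2 fold change of that transcript was 1.04 for Slc2a1, 0.77 for Aldoc, 2.35 for Pfkfb4 and 1.71 for Slc16a3, the same as for the gene sum for Aldoc and larger for the others, and -0.17 for Hk3, smaller than for the sum.

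Markers of other liver cells also differed between the groups. Of 15 markers of liver sinusoidal and general endothelium, 15 were lower in CCl4 libraries, and their sum was 6952 to 13307 TPM in naive and 457.5 to 813 TPM in CCl4 libraries, with none at 0. Clec4g, the most abundant of them, had 1557 to 3090 TPM and 49.4 to 133 TPM. Epas1, first described as an endothelial factor, and Ldhb were low in the same libraries as this sum, and within the naive group library 5, which had the lowest endothelial sum, was the lowest for Epas1 but not for Ldhb, which was lowest in library 4. The part of endothelial RNA in these results was not tested, and in bulk RNA fewer cells of a type and less RNA per cell cannot be told apart.

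Markers of the Kupffer cells themselves and of monocytes moved as well. Of 15 Kupffer cell markers, 14 were lower, with sums of 3794 to 7127 TPM in naive and 926 to 1144 TPM in CCl4 libraries. Clec4f, the lectin that defines the cell in mice, had 878 to 1928 TPM and 65.6 to 87.2 TPM, so the labelled cell type was marked in all 8 libraries but far less in CCl4 ones. Of 12 monocyte markers, 6 of the 10 tested were higher, with sums of 657 to 1311 TPM in naive and 2688 to 6031 TPM in CCl4 libraries, while Vcan stayed under 1 TPM everywhere. Lyz2 was the most abundant of these, with 491 to 1141 TPM and 1843 to 4858 TPM. Hk2, Pfkfb4 and Slc16a3 were high in the same 3 libraries as the monocyte sum. CCl4 library 2-4, with the lowest sum of these, was lowest for Pfkfb4 and Slc16a3 but highest for Hk2, at 76.2 TPM. In the naive group the sum was highest in library 2, while these 3 genes were highest in library 5. The part of monocyte RNA in their rise was not tested.

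Erythroid and stress transcripts differed too. The erythroid sum was 3577 to 6753 TPM in naive libraries 1 to 4, 225 TPM in naive library 5 and 50.7 to 92.6 TPM in CCl4 libraries, and 6 of 6 tested erythroid markers were lower, with Slc4a1 under 1 TPM in the CCl4 libraries. Bnip3l followed the same split of libraries, and the part of red cell RNA was not tested. Immediate early and dissociation-response genes were higher for 12 of 14, with sums of 2234 to 3127 TPM and 4545 to 6917 TPM and Dusp1 the most abundant. Ddit4 was higher in the same 3 libraries, but within each group it did not follow this sum. CCl4 library 2-4 had the highest sum, at 6917 TPM, and the lowest Ddit4 of the CCl4 libraries, at 54.2 TPM. Naive library 3 had the highest naive sum, at 3127 TPM, and the lowest naive Ddit4, at 23.0 TPM. The part of this response in the rise of Ddit4 was not tested.

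**Figure D4:**
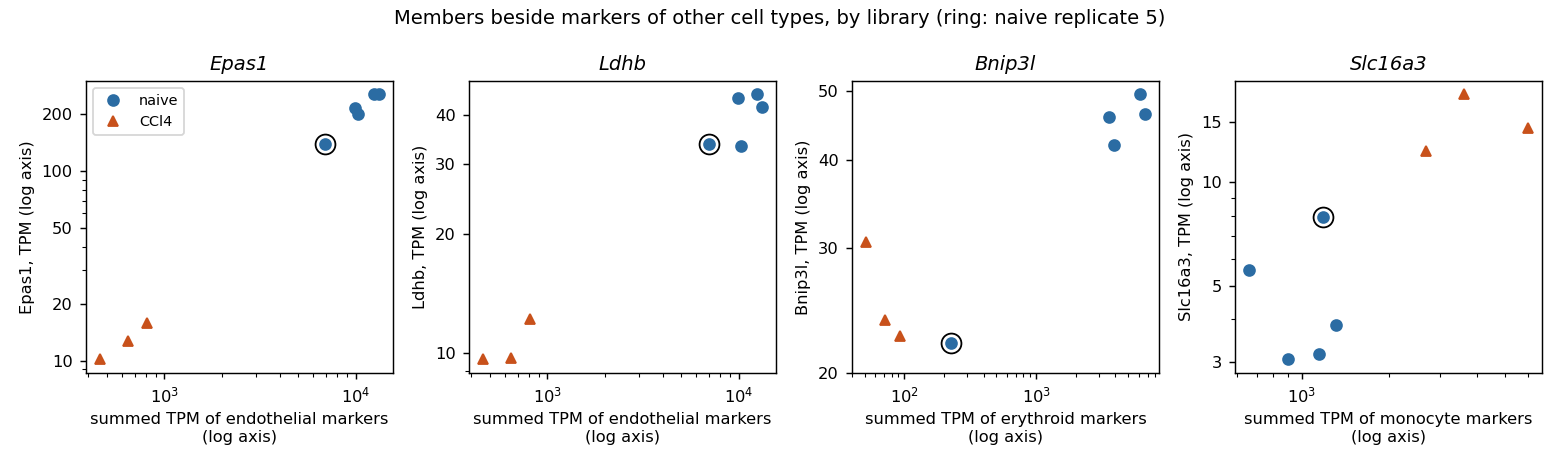
TPM of 4 members against the summed TPM of a marker list in each library, both on log axes, with naive library 5 ringed. Epas1 and Ldhb are plotted against endothelial, Bnip3l against erythroid and Slc16a3 against monocyte markers. For Bnip3l the ringed library lies at 22.0 TPM beside the CCl4 libraries.

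The remaining lists covered other cell types and the cell cycle. Hepatocyte markers were lower for 8 of 12, with overlapping sums of 1028 to 2185 TPM and 517 to 1354 TPM and Trf the most abundant. Stellate cell markers had 3 higher and 2 lower of 10 (sums 46.1 to 116 TPM and 134 to 153 TPM, Col3a1 the most abundant), dendritic cell markers 4 higher and 3 lower of 10 (443 to 542 TPM and 726 to 923 TPM, Bst2), neutrophil markers 1 higher and 2 lower of 5 tested (27.9 to 36.8 TPM and 43.5 to 54.5 TPM, Csf3r), and lymphocyte markers 0 higher and 2 lower of 11 (239 to 286 TPM and 107 to 331 TPM, Gzma). Cell cycle genes were higher for 8 of 12, with sums of 192 to 266 TPM and 281 to 409 TPM and Pcna the most abundant. Naive library 5 was also nearer to the CCl4 libraries in its whole profile, with correlations across genes of 0.878 to 0.888 with them, against 0.813 to 0.846 for naive libraries 1 to 4. Genes are not independent replicates, so this is a description. It was the highest naive library for 7 of the 10 higher members and the lowest for 3 of the 5 lower ones, against 48.3% and 68.0% over all genes called higher and lower.

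Neighbouring pathways were read from lists of 124 further genes, of which 109 were tested, with 18 higher, 25 lower and a median log2 fold change of -0.12. These shares are near the 15.3% higher and 22.5% lower over all genes tested. The pentose phosphate pathway, which branches from glucose 6-phosphate to make NADPH, had 4 of 8 genes higher and 1 lower, with a median of 0.42. Pgd, its second dehydrogenase, had 40.9 to 81.8 TPM in naive and 94.0 to 121 TPM in CCl4 libraries (log2 fold change 0.86, SE 0.21, adjusted p = 0.0072 by limma). H6pd, the form of the first enzymes that works in the endoplasmic reticulum, had a log2 fold change of -0.93 (with SE 0.21, adjusted p = 0.0047). Of the citric acid cycle, 0 of 18 genes were higher and 1 was lower, with a median of -0.03, and the one was Suclg2, a succinyl-CoA ligase subunit (-0.65, SE 0.23, adjusted p = 0.0429). Suclg2 was not called without naive library 1, 2, 3 or 4 or without CCl4 library 2-4 or 3, and its adjusted p reached 0.191 over the alternatives. Pyruvate entry had 1 higher and 2 lower of 13, with Pdk4, a starvation-induced pyruvate dehydrogenase kinase, at 23.0 to 29.2 TPM in naive and 1.18 to 2.89 TPM in CCl4 libraries (log2 fold change -3.11, SE 0.21). Glycogen genes were 1 higher and 2 lower of 9.

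The other glycolysis genes, 21 tested, had 4 higher and 6 lower with a median of -0.26. Slc2a6, a glucose transporter family member of myeloid cells, had 3.07 to 8.52 TPM in naive and 19.6 to 31.4 TPM in CCl4 libraries (log2 fold change 2.33, SE 0.28). Pkm, which makes pyruvate in macrophages, had 294 ± 49.7 TPM (SD, n = 5) without and 320.1 ± 37.9 TPM (SD, n = 3) with CCl4 and was not called (log2 fold change 0.13, SE 0.17, adjusted p = 0.567).

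Other regulators of HIF had 3 higher and 0 lower of 12, the largest rise being in Ep300, a HIF coactivator, at 0.79 (SE 0.13, adjusted p = 0.000746 by limma). Of 28 other hypoxia-inducible genes, 5 were higher and 13 lower, with a median of -0.54. Cxcr4, a chemokine receptor also found on recruited leukocytes, had 0.363 to 8.30 TPM in naive and 47.3 to 151 TPM in CCl4 libraries (log2 fold change 4.22, SE 0.69). Adm, the vasodilator peptide adrenomedullin, had 17.3 to 28.2 TPM and 0.797 to 2.57 TPM (log2 fold change -3.15, SE 0.24). The hypoxia-inducible genes thus had calls in both directions, more of them lower. Over all genes tested, 22.5% were called lower and 15.3% higher. The share of lower calls in this list, 13 of 28, was above that background, and the share of higher calls, 5 of 28, was near it.

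**Figure D5:**
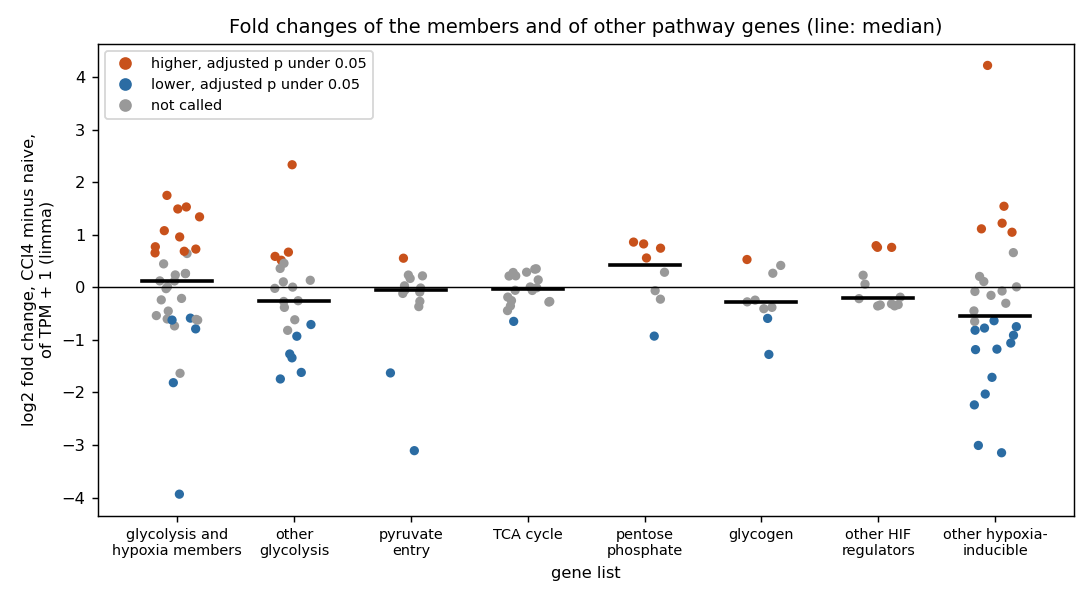
log2 fold change, CCl4 minus naive, of each tested gene of the members and of 7 other lists, with a line at each list's median. Medians run from -0.54 for the other hypoxia-inducible genes to 0.42 for the pentose phosphate pathway, with called genes in both directions in 6 of the 8 lists.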

How the data were processed

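RNA of Kupffer cells was sequenced from directional libraries, per the labels' protocols. The authors deposited TPM per RefSeq transcript, 1 file per library, per the file headers. Quantification used kallisto 0.42.4 with build GRCm38, per the submitters' processing notes, while the index and any read trimming are unstated in those notes. Because TPM hold no read depth, that depth is unknown, and all errors come from differences among libraries. Of 107384 transcripts, 86722 were matched to a RefSeq gene of GRCm38.p6 by accession without version (46184 with it), and the 20662 unmatched ones, with 6.06% to 7.58% of a library's TPM, were left out, so some sums are incomplete. Rn7s1 and Rn7s2, which encode 7SL RNA, took up 27.5% to 41.3% of the TPM.

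Testing was limited to genes that reached 1 TPM in 3 or more libraries and used log2(TPM + 1), a pseudocount of 1, with limma 3.58.1 in R 4.3.3 (intensity trend, group as the only term, Benjamini-Hochberg adjustment over 15629 genes, threshold 0.05). This scale understates the change of low genes. Alternatives changed the pseudocount, the filter, the scaling, the variance model or the weights of libraries, added a replicate block, used single transcripts, or left out each library in turn. After the data had been seen, a sum over coding models only was added, and the other lists were run under the same alternatives. The members, the marker and pathway lists and the alternatives were chosen with earlier results of these data known. All members are reported, with values per library for called members. From each other list the text names the called gene with the largest rise and fall among those with a mean of at least 10 TPM, plus Pkm and the most abundant marker of each cell type. Clec4f was that marker for Kupffer cells. A gene taken by this rule is not reported here.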

Additional observations from a re-analysis of the deposited data

Results flagged for a closer look

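In 3 of the 34 sets of 5 naive values, 1 library lay far from the other naive libraries by Dixon's gap test. Chance alone marks about 5% of such sets. Slc2a1 was 17.4 TPM in naive library 5, and the next naive value was 11.2 TPM. Slc16a1 was 9.20 TPM in naive library 3, and the next was 4.66 TPM. Bnip3l was 22.0 TPM in naive library 5, and the next was 42.0 TPM. The causes were not tested.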

How the results depend on the processing

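Of the 15 called members, 8 (Hk2, Gpi1, Pfkfb4, Ldhb, Slc16a3, Epas1, Vhl and Ddit4) were called in the same direction under all 20 gene-level alternatives, and 7 of the 18 others were called under none. Lower members numbered 10 with TPM rescaled over protein-coding genes, 8 with library weights and 3 with the replicate block. Leaving out each library gave 3 (without CCl4 library 2-4) to 8 (without naive library 5) lower and 8 to 12 higher members, and 16 (without CCl4 library 3) to 31 lower genes of the other pathway lists. Quantile normalization gave 4011 higher genes overall and 28 higher genes of the other lists. It moved the median log2 fold change of all genes from -0.06 to 0.11, so small differences shift with scaling.

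Only uncalled members changed sign. Hk1 was -0.0469 with protein-coding genes rescaled, -0.10 with the replicate block, -0.45 for its most abundant transcript and -0.13 to 0.148 with a library left out. Ldha was 0.0644 with median-of-ratios rescaling, 0.0820 with library weights, 0.0858 with the replicate block and -0.13 to 0.0562 with a library left out. Pfkl was -0.0260 (without CCl4 library 3) to 0.229 with a library left out, Pfkp -0.0787 with coding models only and Pfkm 0.0210 for its most abundant transcript. Eno1 was 0.37 with the replicate block and -3.03 to 0.25 (without CCl4 library 2-4) with a library left out. The cause was not tested.

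The groups share only the replicate numbers 1 and 3, and deviations of same-numbered libraries correlated at 0.08 and -0.04. With so few shared numbers, these values cannot settle whether the numbers pair the libraries. With the replicate block, 8 members were higher and 3 lower and 5312 genes were called in all. In that fit the calls for Hk3, Aldoc, Pfkfb3, Egln1 and Bnip3 were lost (adjusted p = 0.289, 0.206, 0.0716, 0.0516 and 0.183 by limma), and Slc16a1 was called lower (adjusted p = 0.0116). Library depth is unknown, and low members such as Egln3 and Aldoc are the least certain.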
